A study of Bos taurus with 2 samples.

Results

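PENK, NPY, NMB, SCG2 and SCG3, genes of neuropeptides and of the granules that store them, were followed through single cells of bovine embryos, as 5 of the 17846 genes in the deposited count table. They were picked by name with earlier results of these data in view, for their levels across cell clusters, so those levels are a description and carry no test. Neuropeptides are made as longer precursors that enter the secretory pathway, are packed into dense-core granules, are cut and trimmed there by dedicated enzymes, and are released when the cell is stimulated. PENK encodes proenkephalin, the precursor of the enkephalins, which act on opioid receptors. NPY encodes the precursor of neuropeptide Y, a peptide of sympathetic and many central neurons, and NMB that of neuromedin B, a bombesin-like peptide. SCG2 and SCG3 encode secretogranins, acidic proteins of the granule itself, and secretogranin II is also a source of small peptides. These roles are known mainly from adult mammals.

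The samples formed 1 group with no control group: embryos flushed on day 25 of development, each a chimera that had taken up bovine embryonic stem cells, digested to single cells with papain, put through a cell sorter and captured in droplets (10x Genomics Chromium chemistry), which reads the 3′ end of each transcript. Replicate 1 held 1973 cell barcodes and replicate 2 held 2464. Neither the number of embryos behind each library, nor whether the libraries had embryos in common, nor the sort gate is stated in the labels, so spread between replicates may be technical and the gate may set which cells are present. Values are UMI, the molecular tags by which each captured transcript is counted once, summed per cluster and library and given as CPM, the field's usual scaling by the total UMI of that cluster and library. Levels are compared between clusters for 1 gene at a time.

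After filters 1843 and 2316 cells remained, with medians of 5232 and 5974 UMI per cell, and 22 clusters were drawn without the 5 genes, the related gene lists or GFP. Clusters 1 and 8 carried neuron markers (neuron-like, 299 and 348 cells), and 6 clusters carried progenitor markers (neural progenitor-like, 939 and 1059 cells). The neuron-like cells, clustered again, gave 12 subclusters, N0 to N11. Clusters 15 and 16 each came almost wholly from 1 library. Globin RNA (HBZ) was found in 82.8% of all cells, so RNA outside its cell of origin can give single UMI, and a share of cells with 1 UMI need not be expression. Both libraries shared 6 barcodes, whose cells held 3 UMI of the 5 genes in all.

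PENK, SCG2 and SCG3, 3 of the 5 genes, stood at least 4-fold higher in neuron-like than in neural progenitor-like cells in both libraries. The same was true of 440 of 8693 genes tested, or 5.06%, where a gene was tested if 1 of the classes reached 20 CPM in both libraries, but the genes had been chosen for this pattern and nothing is read from the count. None of the 5 was at least 4-fold lower, as 6.05% of the genes were. NPY and NMB stayed under 5 CPM in neuron-like cells in both libraries. The 5 genes thus fell into different places: PENK in 1 neuron subcluster, SCG2 in several, SCG3 in all 12, NMB in a small epithelial cluster, and NPY in very few cells of several kinds.

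**Figure D1:**
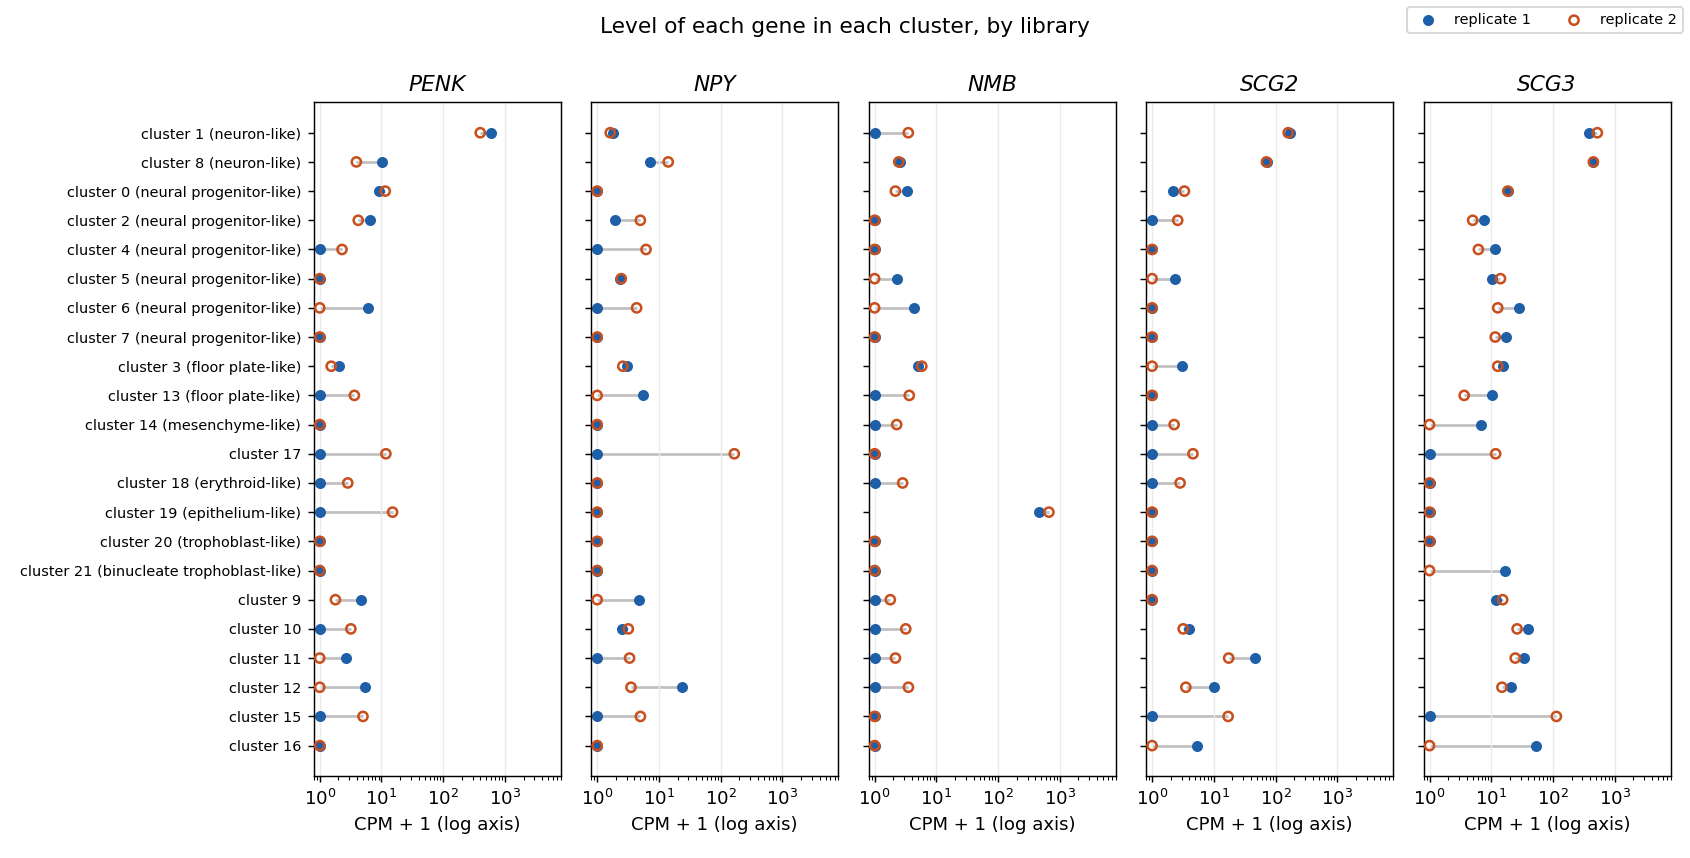
Level of each gene in the 22 clusters, as CPM + 1 on a log axis, with a filled point for replicate 1 and an open point for replicate 2. SCG2 and SCG3 are highest in both neuron-like clusters at the top, PENK in cluster 1 of these alone, NMB in cluster 19, where it reached 467 and 664 CPM, and NPY in cluster 17 of replicate 2 alone, at 165 CPM.

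PENK gave 1422 UMI in 90 cells. In neuron-like cells it stood at 392 CPM in replicate 1 and 279 CPM in replicate 2, against 3.51 and 2.85 CPM in neural progenitor-like cells. The mean difference was 6.31 ± 0.18 on the log2(CPM + 1) scale (SD, n = 2). Neuron-like cells held 96.7% of all PENK UMI, and 8.04% of them had a PENK UMI against 1.10% of neural progenitor-like cells, at median depths of 6381 and 4400 UMI per cell. After thinning to 2000 UMI per cell the shares were 5.85% and 0.573%. Here and below, cells under that depth were left out of thinned shares. In replicates 1 and 2 this kept 275 and 323 neuron-like and 832 and 913 neural progenitor-like cells. Cluster 14, a mesenchyme-like cluster of deeper cells, had a PENK UMI in 0 of 105 cells, which allows a share of up to 2.86%.

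Nearly all of this signal was in N4, a subcluster of 28 and 29 cells led by NR3C2 (the mineralocorticoid receptor), SLC18A2 (the vesicular monoamine transporter), SHOX2 and LINGO2. PENK reached 3339 CPM in N4 of replicate 1, from 728 UMI in 15 of 28 cells, and 2998 CPM in replicate 2, from 593 UMI in 17 of 29 cells. In the other neuron-like cells it was 7.18 and 20.2 CPM. N4 therefore held 92.9% of all PENK UMI, and PENK had the largest mean difference of the 43 genes that were at least 4-fold higher in N4 in both libraries (0.576% of 7471 tested), at 7.91 ± 1.08 on the log2(CPM + 1) scale (SD, n = 2). Of the 42 PENK UMI in the other neuron-like cells of replicate 2, 27 were in 1 cell of N1.

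Within N4 the level differed widely from cell to cell. The highest cell had 155 PENK UMI in replicate 1 and 104 in replicate 2, while the median cell had 1.5 and 1. Cells with at least 20 PENK UMI numbered 8 in each library, and cells with none numbered 13 and 12. The 10 highest cells of a library, over all clusters, held 94.0% and 89.1% of its PENK UMI. N4 was thus a mixture, in both libraries, of cells rich in PENK transcripts and cells in which none was captured.

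Outside N4 PENK was sparse. N11 had 64.1 CPM in replicate 1, from 4 UMI in 3 of 10 cells, and 0 in replicate 2. N5 had 14.4 and 40.6 CPM, from 2 and 4 UMI. Cluster 8, the other neuron-like cluster, had 9.29 and 2.92 CPM, from 6 and 2 UMI. The progenitor-like cluster 0 had 8.28 and 10.5 CPM, close to cluster 8 in replicate 1 and above it in replicate 2. Apart from N4 no subcluster held a high place in both libraries: N1 and N11, the next by mean level, were each at 0 in 1 of them. Cluster 1, which contains N4, stood at 591 and 397 CPM, and PENK was 1 of the 126 genes (1.65% of 7628 tested) at least 4-fold higher in cluster 1 than in cluster 8 in both libraries. Without N4, the mean log2 difference between neuron-like and neural progenitor-like cells dropped to 1.66, and PENK no longer reached 4-fold in both libraries.

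Inside the neuron-like cells PENK lay beside transcripts of serotonin handling. Over the 12 subclusters the genes whose level was most like that of PENK were TPH2, which encodes the rate-limiting enzyme of neuronal serotonin synthesis (Pearson r of 0.79 and 0.78 in replicates 1 and 2), NR3C2, SLC6A4, which encodes the serotonin transporter, and CRYBA2. N4 largely sets this ranking, since PENK did not pass 72.1 CPM in any other subcluster of either library. The ranking over subclusters, and the genes that follow, were chosen after values had been seen. TPH2 stood at 68.8 and 50.5 CPM in N4, against 0.598 and 0 CPM in the other neuron-like cells, and N4 held 65.8% of all its UMI. FEV, a transcription factor gene of serotonergic neurons in mouse, stood at 36.7 and 40.4 CPM in N4 against 0.598 and 1.44 CPM, on only 8 UMI in each library. SLC18A2 had 179 and 227 CPM in N4 against 9.58 and 6.73 CPM, and LMX1B 101 and 217 CPM against 9.58 and 14.4 CPM. Cells outside the neuron-like class held 78.2% of all SLC6A4 UMI, 62.3% of SLC18A2 and 63.5% of LMX1B, at means of 5.41, 8.49 and 8.89 CPM. For TPH2 and FEV they held 31.6% and 4.76%. DBH, which encodes the enzyme that makes noradrenaline, and TH gave 0 UMI in N4, and the transporter genes SLC17A6 and SLC32A1 of glutamatergic and GABAergic neurons gave 0 as well. Of the 8 markers of noradrenergic or autonomic neurons as a list, N4 nevertheless matched 3, and N0 matched 6. No list for serotonergic neurons was set for this study, so N4 keeps its number.

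Cell by cell, TPH2 was captured in 12 of the 57 N4 cells, and 11 of these also had PENK. A PENK UMI went with a TPH2 UMI in 34.4% of PENK cells and 4.00% of the other N4 cells, and with an SLC18A2 UMI in 84.4% and 36.0%. The granule gene SCG2 was captured in 78.1% of the PENK cells of N4 and in 52.0% of its other cells. Deeper cells give more of every transcript. The part of depth in these shares, and in the like shares of gene pairs given further on, was not tested.

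**Figure D2:**
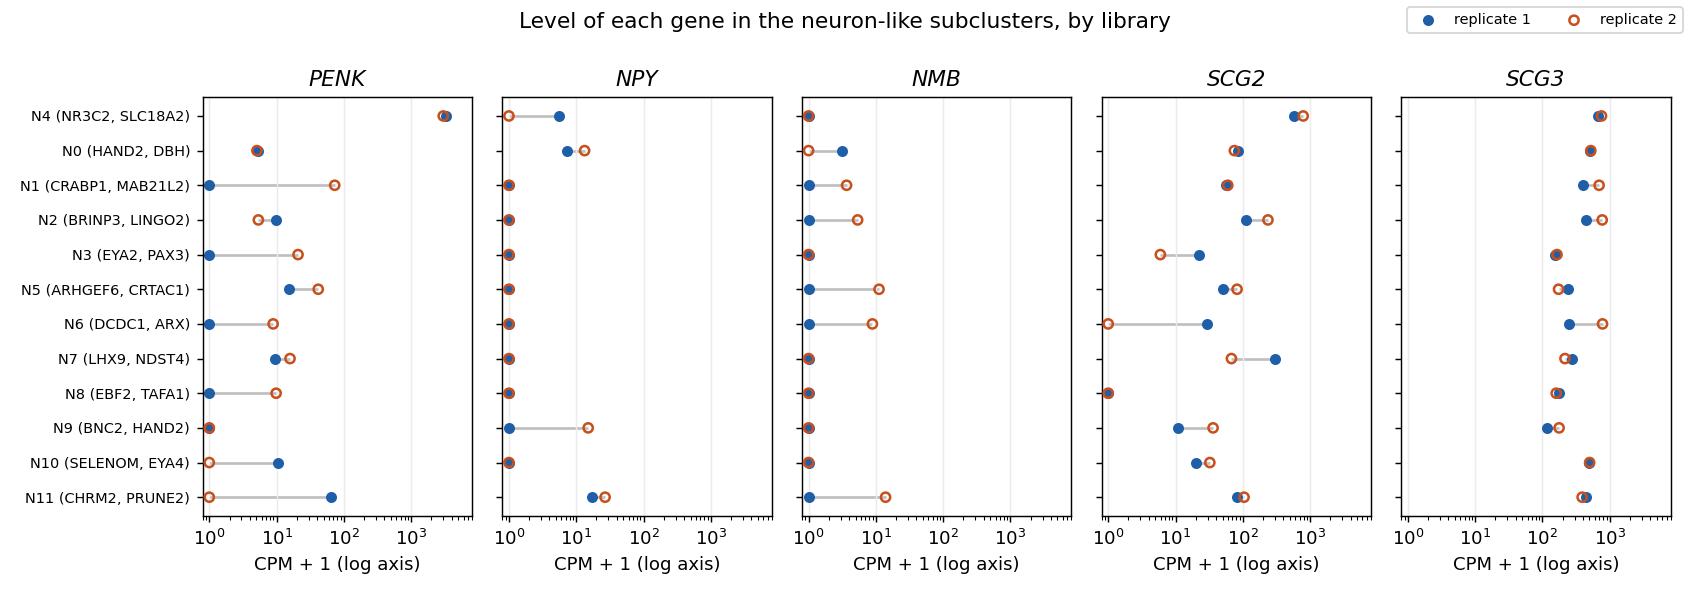
Level of each gene in the 12 neuron-like subclusters, as CPM + 1 on a log axis, N4 first; the genes in brackets lead each subcluster. PENK exceeds 2900 CPM in N4 of both libraries and stays below 75 CPM in every other subcluster, SCG2 spans 0 to 789 CPM, and SCG3 lies between 117 and 781 CPM throughout.

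Over the 16 clusters with at least 20 cells in each library, the genes most like PENK were ONECUT1, NRN1, XKR4 and ONECUT2, with the lower of the 2 libraries' Pearson r between 0.73 and 0.77. ONECUT1 and ONECUT2 encode neuronal transcription factors, and NRN1 encodes neuritin. The points share 1 library each and differ in depth. None of the 4 stayed among the nearest 4 when rank correlation was used, and the same held for the genes given for SCG2 and SCG3 further on. Inside the neurons they did not share 1 place with it: ONECUT1 stood at 18.3 and 40.4 CPM in N4, against 129 and 128 CPM in the other neuron-like cells, while XKR4 had 362 and 586 CPM against 269 and 236 CPM. None of the 4 was among the 4 most like PENK over the subclusters.

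NPY was the rarest of the peptide genes, with 23 UMI in replicate 1 and 78 in replicate 2, in 43 of 4159 cells. Of all NPY UMI 45.5% lay in 2 cells of cluster 17 in replicate 2, with 39 and 7 UMI, and the first of these held 39 of the replicate's 78 NPY UMI. Both cells fell in a part of cluster 17 with 3 cells from each library, in which replicate 1 had 0 NPY UMI. They carried markers of several kinds: 147 and 158 UMI of mesenchyme markers, 96 and 68 of these from the matrix gene DCN, 97 and 73 of epithelium markers, 32 and 115 of neural progenitor markers, and 12 and 0 of neuron markers, with no DBH or GFP UMI. Cluster 17 as a whole, led by CXCL14, DCN and MYL7, qualified for the name cardiomyocyte-like, but TNNT2 was captured in 1 cell of each library and MYL7 in 2, so it is called by its number. NPY in it stood at 0 CPM in replicate 1 and 165 CPM in replicate 2, a value that rests on those 2 cells. None of the 5 genes was at least 4-fold higher in cluster 17 than in all other cells in both libraries (1.39% of 8173 genes were), and SCG2 and SCG3 were lower (2.75%).

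Among neurons, NPY was captured mainly in cluster 8. This cluster, which carried 6 of 8 markers of noradrenergic or autonomic neurons (HAND2 among its leading genes), had 6.19 and 13.1 CPM, from 4 and 9 UMI in 4 of 87 and 5 of 103 cells. Cluster 1 had 0.805 and 0.627 CPM, from 1 UMI in each library. Of the subclusters, N0, led by HAND2, DBH and TH, had 6.33 and 12.3 CPM, N11, whose leading genes include CHRM2 and the choline transporter gene SLC5A7, had 16 and 25.9 CPM on 1 and 2 UMI, N9 had 0 and 14.1 CPM, and N4 had 4.59 and 0 CPM on 1 UMI. N1, N2, N3, N5, N6, N7, N8 and N10 had none, and 0 of 70 cells in N1 allows a share of up to 4.29%. Of the 9 NPY cells of cluster 8, 55.6% had a DBH UMI, against 45.3% of its other cells, and 0 had PENK.

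For neuron-like over neural progenitor-like cells as whole classes, NPY was 2.65 and 4.39 CPM against 0.439 and 2.44 CPM, a mean log2 difference of 0.99 ± 0.49 (SD, n = 2). The share of cells was 1.70% against 0.601%, and 0.669% against 0.401% after thinning to 2000 UMI. The level did not reach 20 CPM in either class, so NPY was not among the tested genes. Cluster 12, led by RSPO2 and TRPM3, had 22.4 and 2.53 CPM, 6 of its 10 replicate 1 UMI in 1 cell. Among the 16 larger clusters no gene followed NPY closely. The nearest was CDK9 with r of 0.61 and 0.59, followed by MED4, IGBP1 and CHRAC1, which in counts this sparse is no finding.

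NMB had a single place of high level. In cluster 19 it stood at 467 CPM in replicate 1 (exact Poisson 95% interval for counting error 332 to 638) and 664 CPM in replicate 2 (488 to 883), from 39 and 47 UMI. It was captured in 11 of 17 and 6 of 11 cells, or 64.7% (exact Clopper-Pearson 95% interval 38.3 to 85.8) and 54.5% (23.4 to 83.3). All other cells stood at 0.909 and 1.57 CPM. Cluster 19 thus held 71.7% of all NMB UMI in 28 cells, and its share of cells with NMB was 60.7%, against 0.799% elsewhere, at median depths of 3897 and 5635 UMI per cell. After thinning, which kept 14 and 8 cells of cluster 19, the shares were 50% and 0.134%. The mean log2 difference was 7.98 ± 0.05 (SD, n = 2), and NMB ranked 10 among the 409 genes (4.87% of 8393 tested) at least 4-fold higher in cluster 19 in both libraries.

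Cluster 19 matched the epithelium markers, 6 of 6, and was led by WFDC2, ATP6V1G3, C15H11orf34, SLC26A4 and ATP6V1C2. ATP6V1G3 and ATP6V1C2 encode subunits of the proton pump and SLC26A4 encodes an anion exchanger. Over the 17 clusters with at least 10 cells in each library the genes most like NMB were led by MRGPRX2, PODN and FOXI1, each with r of 0.92 or more in both libraries, a ranking that 1 cluster sets. FOXI1, a transcription factor gene of ionocytes, cells that move ions and acid across epithelia, gave 16 UMI in these data, all 16 in cluster 19, at 108 and 98.9 CPM. Of the 17 NMB cells 47.1% had a FOXI1 UMI, against 27.3% of the other cells of cluster 19, on few cells and with the part of depth not tested. Embryonic ionocyte markers were not a list set for this study, and the cluster keeps its number.

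The granins, and the processing enzymes other than FURIN, were sparse in cluster 19. SCG2, SCG3, CHGA, CPE and PCSK2 gave 0 UMI there in both libraries, which for SCG2 and SCG3 allows 19.4 CPM over both. SCG5 and PCSK1N gave 2 UMI each, PAM gave 3 and CADPS gave 1. The granule genes SYTL4 and ICA1 gave 5 UMI each in replicate 1 and 1 each in replicate 2. Against 8.27 and 9.05 CPM in all other cells, FURIN stood at 35.9 and 98.9 CPM in cluster 19, from 3 and 7 UMI. Of 12 neuron markers 6 were at 0 there (ELAVL3, ELAVL4, INA, NEFM, GAP43 and MYT1L), and the summed level of all 12 was 192 and 98.9 CPM, against 8817 and 10618 CPM in cluster 1. Of the 18 other pathway genes tested there, 9 were at least 4-fold lower than in all other cells in both libraries, where 12.5% of all genes were. These 9 were tested only through their level in the other cells. The lists were chosen with earlier results known, so nothing is read from the count. GFP was 287 and 84.8 CPM, against 1646 and 1801 CPM in all other cells.

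In neuron-like cells NMB was at 0.529 and 2.19 CPM, against 1.10 and 0.203 CPM in neural progenitor-like cells. The libraries went opposite ways, with a mean log2 difference of 0.48 ± 1.32 (SD, n = 2), so no direction can be given. Its next place was cluster 3, a floor plate-like cluster with deep cells (median 9780 UMI), at 4.13 and 4.80 CPM from 4 and 9 UMI in 12 cells, whose share of 3.73% came down to 0.332% after thinning. Within the 16 larger clusters, which leave out cluster 19, no gene followed NMB with r above 0.46 in both libraries, and GSPT1, MPC2, STAMBP and ZNF24 came first.

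**Figure D3:**
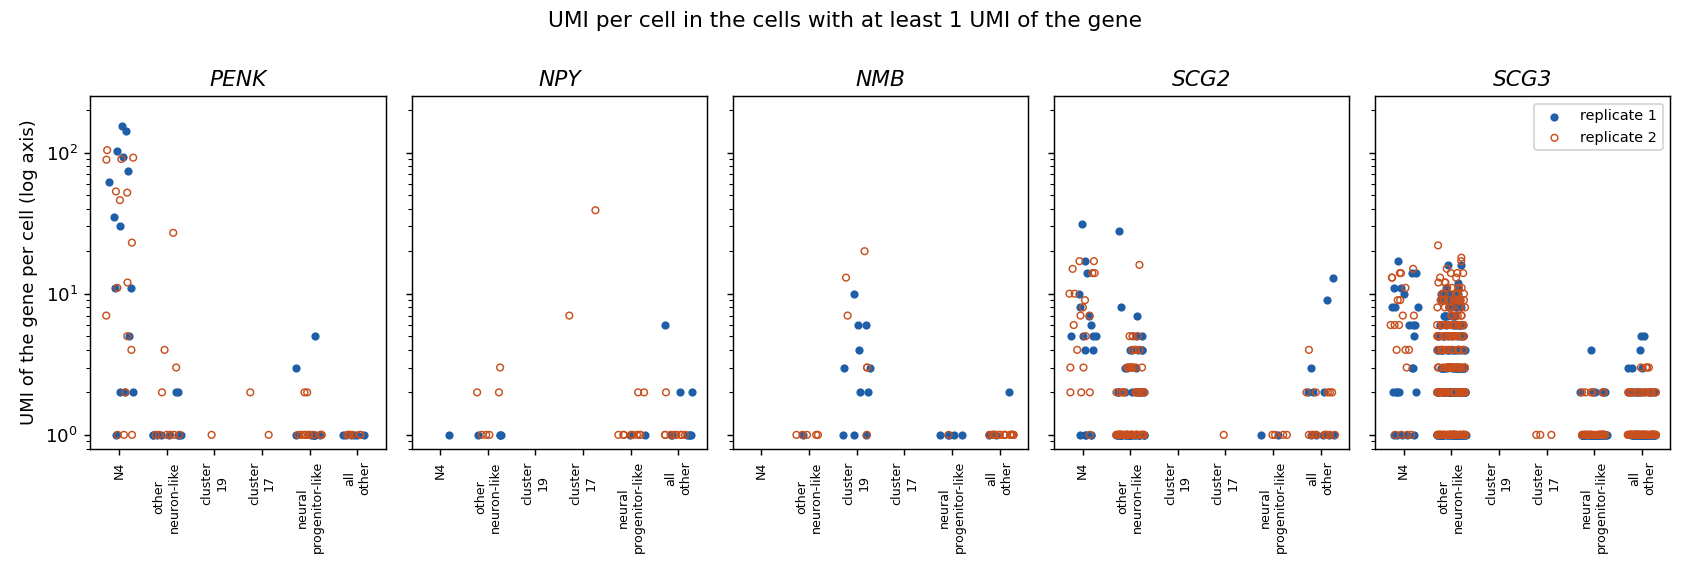
UMI of each gene per cell, on a log axis, in the cells that had at least 1, by group and library. PENK reaches 155 UMI in N4, 1 cell of cluster 17 holds 39 NPY UMI, NMB reaches 20 UMI in cluster 19, and most cells outside these groups hold 1 UMI of these 3 genes.

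SCG2, of the granins, gave 624 UMI in 196 cells, of which neuron-like cells held 89.3%. The level was 135 and 133 CPM in neuron-like cells, against 0.439 and 0.814 CPM in neural progenitor-like cells, on 2 and 4 UMI there. The mean log2 difference was 6.38 ± 0.26 (SD, n = 2). The share of cells was 25.0% against 0.30%, and 13.9% against 0.229% after thinning. Clusters 6, 7, 4, 13 and 9, each of over 100 cells, had no SCG2 UMI.

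Among neurons SCG2 was again highest in N4, at 578 and 789 CPM from 126 and 156 UMI, in 18 of 28 and 20 of 29 cells. The other neuron-like cells had 77.2 and 70.2 CPM, a mean log2 difference of 3.18 ± 0.41 (SD, n = 2), rank 19 of the 43 genes. N4 held 45.2% of all SCG2 UMI, so, unlike PENK, more than a trace lay elsewhere. N2, led by BRINP3, LINGO2 and GAD2, had 111 and 236 CPM. N7, led by LHX9, had 304 CPM in replicate 1, of which 28 of 36 UMI were in 1 cell, and 66.8 CPM in replicate 2. N11 had 80.1 and 103 CPM, N0 had 84.3 and 73.9, N5 had 50.4 and 81.2, and N1 had 55.6 and 58.8. The ranges of these levels between libraries touch or nearly so. N3, led by EYA2 and PAX3 with 4 of 8 newborn neuron markers, had 21.7 and 4.96 CPM, and N8, led by EBF2, had 0 of 39 cells, which allows a share of up to 7.69%.

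Cluster 1 had 168 and 159 CPM and cluster 8 had 71.2 and 70.1 CPM, a mean log2 difference of 1.20 ± 0.04 (SD, n = 2), short of 4-fold. Outside neurons SCG2 was highest in cluster 11, led by COL25A1 and EDIL3, at 46.2 and 16.4 CPM from 27 and 14 UMI in 12 cells. Those 12 cells had an ELAVL3 UMI in 75.0% of cases, against 43.0% of the other cells of the cluster. The genes most like SCG2 over the 16 larger clusters were SHC2, TUBB2B, PCBP4 and SCG3, with the lower r between 0.81 and 0.84. TUBB2B encodes a tubulin of developing neurons.

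SCG3 was the common transcript of the neurons, with 2218 UMI in 689 cells. It stood at 398 and 500 CPM in neuron-like cells, against 13.6 and 9.77 CPM in neural progenitor-like cells, a mean log2 difference of 5.16 ± 0.54 (SD, n = 2). Its share of cells was 66.8% against 4.75%, and 45.2% against 2.29% after thinning. Neuron-like cells held 85.3% of its UMI. The 2 neuron-like clusters had like levels, with 377 and 521 CPM in cluster 1 and 438 and 450 CPM in cluster 8, and a mean log2 difference of 0.00 ± 0.30 (SD, n = 2), within the spread between libraries.

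Every one of the 12 subclusters had SCG3 in both libraries. N4 had 665 and 753 CPM, with the highest mean, 709, against 363 and 476 CPM in all other neuron-like cells, a mean log2 difference of 0.77 ± 0.15 (SD, n = 2). N2 had 445 and 772 CPM, N1 had 398 and 694, N0 had 506 and 522, and N6 had 244 and 781, so that N6 covered nearly the whole range on its own. The lowest means were those of N9 at 146, N3 at 158 and N8 at 167 CPM. In N10, led by SELENOM and EYA4, 22 of 23 cells had an SCG3 UMI, or 95.7%. The erythroid-like cluster 18, cluster 19 and the trophoblast-like cluster 20 had none, the binucleate trophoblast-like cluster 21 had 1 UMI, and 0 of 31 erythroid-like cells allows a share of up to 9.68%. Cluster 15, of 68 cells in replicate 2 and 1 in replicate 1, had 112 CPM in replicate 2, which cannot be told apart from a feature of that library.

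The genes most like SCG3 over the 16 larger clusters were INA, GDAP1L1, EEF1A2 and GNG3, with the lower r between 0.86 and 0.88. INA encodes alpha-internexin, a neurofilament protein, and GNG3 a G protein subunit of neurons. Between members, SCG2 and SCG3 were most alike, at r of 0.82 and 0.81 over these clusters, then PENK and SCG2 at 0.67 and 0.66. Over the 12 subclusters the values were 0.65 and 0.33 for SCG2 with SCG3 and 0.68 and 0.31 for PENK with SCG2, lower in replicate 2. These are descriptions over points that share libraries and depth. Of the 162 neuron-like cells with SCG2, 138 had SCG3, or 85.2%, against 60.6% of the other neuron-like cells.

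Combinations followed the same lines. Of the 647 neuron-like cells, 182 had none of the 5 genes, 299 had 1, 134 had 2 and 32 had 3. In N4, 22 of 57 cells had 3 of them. No neuron-like cell with PENK had NPY or NMB. Among the 52 neuron-like PENK cells 45 had GFP, or 86.5%, against 78.2% of the others, and GFP in N4 was 1922 and 1936 CPM against 1504 and 1538 CPM in the other neuron-like cells. The labels do not name the cells that carry GFP.

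The other granins were also higher in neurons. All 3 that could be tested, CHGA, SCG5 and PCSK1N, were at least 4-fold higher in neuron-like cells in both libraries, and none was lower. Of all genes tested 5.06% were higher and 6.05% lower. The list was chosen with earlier results known, so nothing is read from the count. CHGA (chromogranin A) stood at 200 and 220 CPM, against 48.5 and 42.9 CPM in neural progenitor-like cells, SCG5 at 278 and 312 CPM against 43.4 and 40.1 CPM, and PCSK1N, an inhibitor of the convertase PCSK1, at 345 and 471 CPM against 29.2 and 34.0 CPM. CHGA had another distribution from SCG2. It was highest in N0, at 533 and 624 CPM, and in N4 it was 32.1 and 65.7 CPM, against 221 and 235 CPM in the other neuron-like cells. CHGB stayed at 5.29 and 8.78 CPM in neuron-like cells, with 64.1 and 77.6 CPM in N11.

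None of the enzymes that turn precursors into peptides was 4-fold apart in both libraries. Of 4 tested, PCSK2, CPE, PAM and PCSK5, 0 were higher and 0 lower by the rule, where 5.06% and 6.05% of all genes were. CPE, a carboxypeptidase that trims the cut peptide, passed 4-fold in replicate 1 alone, at 323 and 310 CPM in neuron-like cells against 74.8 and 80.6 CPM in neural progenitor-like cells, a mean log2 difference of 2.01 ± 0.12 (SD, n = 2). PCSK2, a convertase that cuts proenkephalin, had 55.1 and 60.6 CPM against 14.9 and 7.73 CPM, a mean log2 difference of 2.32 ± 0.71 (SD, n = 2), past 4-fold in replicate 2 alone. It was highest in N4, at 128 and 162 CPM. PAM, which amidates peptides, had 314 and 298 CPM against 143 and 120 CPM. PCSK5 went the other way, with 38.1 and 67.6 CPM against 139 and 150 CPM.

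Of 9 genes of granule formation and release that could be tested, 3 were at least 4-fold higher in neuron-like cells and none lower. Of all genes tested 5.06% were higher and 6.05% lower. CADPS, which primes dense-core granules for release, had 770 and 741 CPM in neuron-like cells against 46.1 and 43.9 CPM in neural progenitor-like cells. Its highest level was in N8, at 1634 and 1946 CPM, the subcluster with no SCG2 UMI. CADPS was not particular to neurons, since the floor plate-like cluster 13 had 777 and 877 CPM. UNC13A had 57.2 and 44.3 CPM against 1.75 and 3.05 CPM, and RAB3A 42.4 and 42.1 CPM against 3.29 and 5.09 CPM. Over all lists without the 5 genes, 8 of 21 tested genes were higher and 0 lower, with a median log2 difference of 2.03, where the median of all 8693 genes tested was -0.38. The lists were chosen with earlier results of these data known. Some of these genes, such as UNC13A and RAB3A, were tested only through their level in neuron-like cells. Nothing is read from the count or the median.

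**Figure D4:**
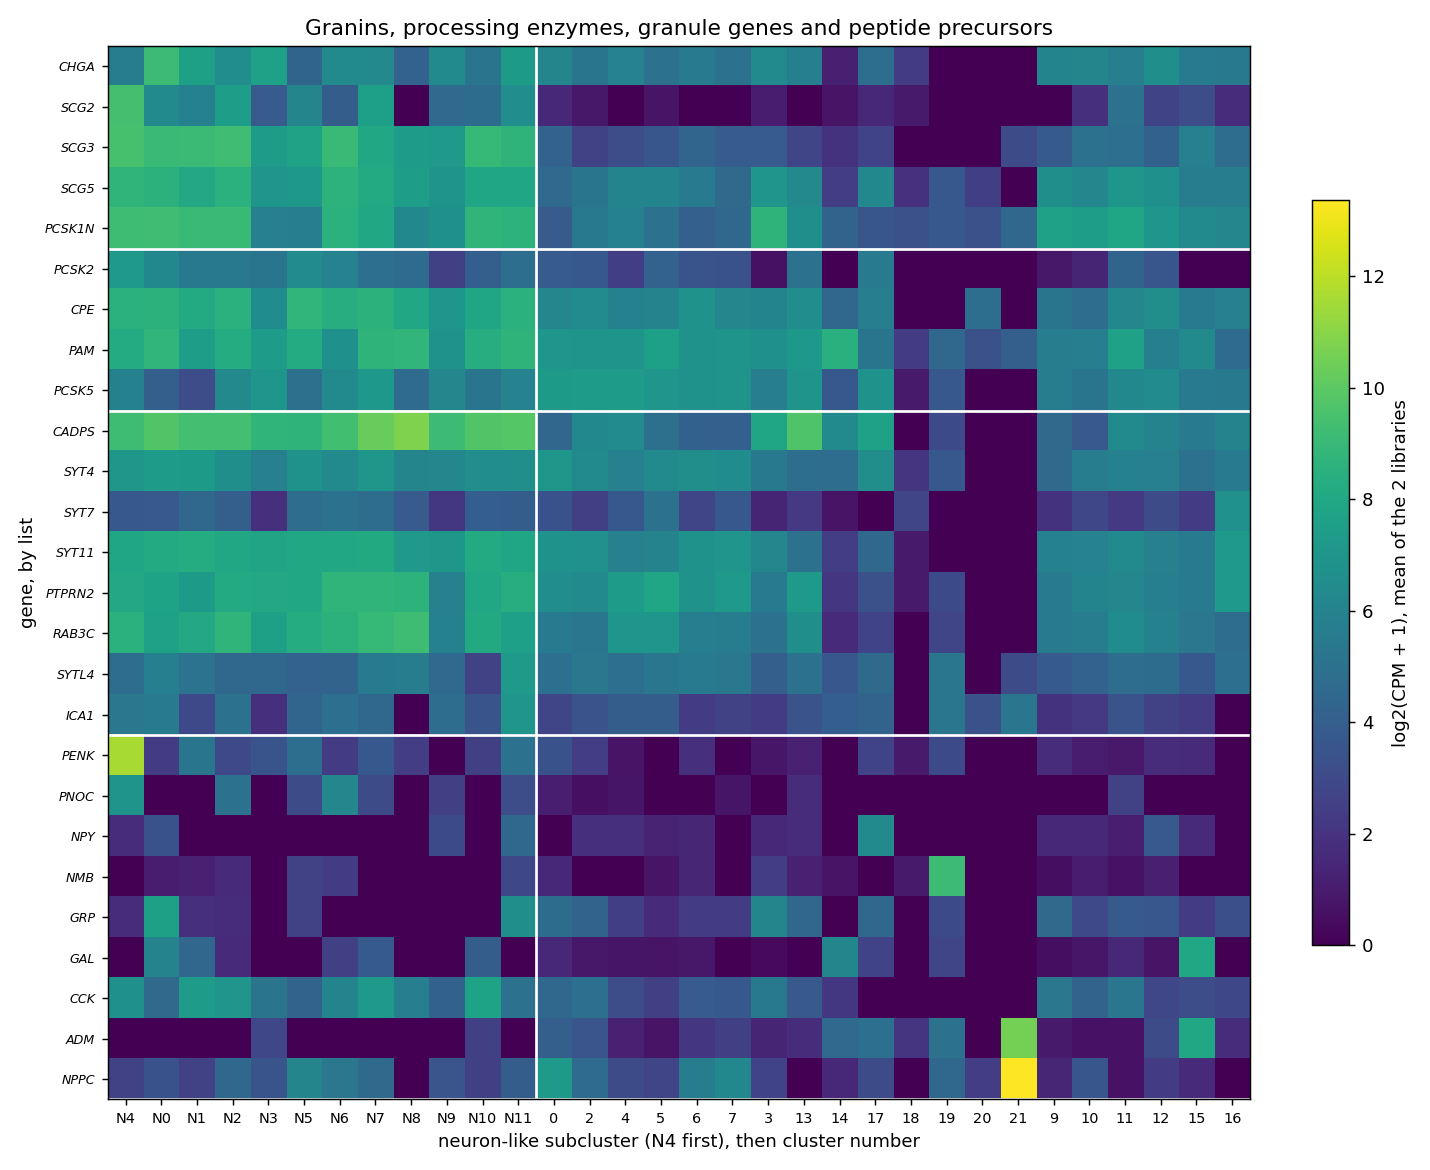
Mean level of granins, processing enzymes, granule genes and peptide precursors, as log2(CPM + 1) over both libraries, in the 12 neuron-like subclusters (N4 first) and the other clusters by number; lists are divided by white lines, and a gene is shown if a unit averaged at least 100 CPM or if it is 1 of the 5 genes. SCG3, SCG5 and PCSK1N are present in every subcluster, while SCG2 and CHGA vary among them. PENK stands out in N4, CHGA and GRP in N0, NMB in cluster 19, and NPPC and ADM in cluster 21. PNOC is highest in N4, followed by N6.

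Other peptide precursors had places of their own. Of 5 tested besides PENK, PNOC and CCK were at least 4-fold higher in neuron-like than in neural progenitor-like cells in both libraries. The same was true of 5.06% of all genes tested. Both genes were tested only through their level in neuron-like cells, and nothing is read from the count. PNOC, the precursor of nociceptin and so a relative of PENK, was also highest in N4, at 110 and 131 CPM, on 24 and 26 UMI. The other neuron-like cells together had 8.38 and 11.1 CPM, but N6 among them had 65.8 and 78.9 CPM, from 7 and 10 UMI. PNOC was thus less confined to N4 than PENK. Of the 32 PENK cells of N4, 6 had a PNOC UMI. TAC3 in N4 was 4.59 CPM in replicate 1 and 172 CPM in replicate 2. GRP, the other bombesin-like precursor beside NMB, lay in N0, at 186 and 201 CPM, and with 1 and 0 UMI in N4 it was the list gene at least 4-fold lower there than in the other neuron-like cells (1.12% of genes were). Among the subclusters CCK had its highest mean in N10, at 238 and 188 CPM, and SST in N6, at 37.6 and 134 CPM. N1 was higher than these in 1 library each, with 200 CPM of CCK in replicate 2 and 71.5 CPM of SST in replicate 1. TAC1 had no single highest place, with 95.4 and 16 CPM in N1, 49.0 and 48.0 CPM in N2 and 0 and 103 CPM in N6. Between the neuron-like clusters TAC1, PNOC and CCK were at least 4-fold higher in cluster 1 and CHGA and GRP at least 4-fold lower, a fall of that size being met by 1.05% of all genes.

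Receptors for these peptides were low. None of 10 in the table reached 20 CPM in neuron-like or neural progenitor-like cells in both libraries. OPRM1, the mu opioid receptor, had 13.2 and 16.7 CPM in neuron-like cells, from 25 and 38 UMI, against 0.439 and 0.610 CPM in neural progenitor-like cells, from 2 and 3 UMI, a mean log2 difference of 3.38 ± 0.11 (SD, n = 2). It had 20.1 and 45.3 CPM in cluster 8, and was highest in N11, at 96.1 and 51.7 CPM. NPY1R did not pass 10 CPM in any cluster or subcluster, and NMBR, the receptor of neuromedin B, had 3 UMI in all deposited barcodes. A count of 3 UMI stands for 1.59 and 1.32 CPM in neuron-like cells and 0.658 and 0.610 CPM in neural progenitor-like cells. In N4 it stands for 13.8 and 15.2 CPM. Receptor expression below such levels could have been missed.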

How the data were processed

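The authors deposited raw UMI counts per gene and barcode, made with Cell Ranger on bosTau9 and handled in R 4.1.2 and Seurat 4.3.0, per the submitters' processing notes. Columns were tied to libraries by their prefix number, which matches the replicate number in the sample titles, and 0 columns were left out. Replicate 1 held 11182089 counts and replicate 2 held 15427708. Barcodes had at most 3999 genes. No doublet caller was run.

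Cells with at least 500 genes, 1000 UMI and at most 15% mitochondrial counts were clustered with scanpy 1.11.5 (2000 variable genes, 30 components, 15 neighbours, Leiden resolution 1.0, seed 0). The 5 genes, the lists and GFP were left out of clustering. A name needed 3 detected markers, each at 20 CPM and 25% of its highest level, a naming rule set after clusters were seen. Clusters over 90% from 1 library kept numbers.

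Levels are CPM of summed counts, with a pseudocount of 1 CPM in log2 differences. Called means at least 4-fold in both libraries with 20 CPM in the higher group. Likeness is Pearson's r of log2(CPM + 1) over clusters of at least 20 cells per library, among genes with 50 CPM in some cluster. Named genes were the 5, list genes at 100 CPM or the 5 highest of a list, the 4 most like each gene, leading genes and GFP; some genes under this rule are not reported here. Members and lists (granins, processing enzymes, granule formation and release, precursors, receptors) were chosen with earlier results of these data known. No p-value is given, since clusters and genes were chosen on these counts. Intervals and limits from 0 counts (3 counts) cover counting error only.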

Additional observations from a re-analysis of the deposited data

How the results depend on the processing

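Of 55 recomputed member differences between neuron-like and neural progenitor-like cells, 54 kept a positive sign, the exception being NMB without replicate 2. Leaving out each library in turn gave log2 differences of 6.18 to 6.44 for PENK, 0.65 to 1.34 for NPY, -0.45 to 1.41 for NMB, 6.20 to 6.56 for SCG2 and 4.77 to 5.54 for SCG3, 3 to 3 of the 5 genes past 4-fold, and 11 to 12 of the other pathway genes. PENK moved to 6.63 with the lists kept in clustering, 6.70 at resolution 2.0, 5.83 as a mean over cells, 6.02 after thinning, 5.36 with a pseudocount of 5 CPM and 6.07 with neurons set by 6 of 12 markers. SCG2 moved to 6.65, 6.94, 6.05, 5.86, 4.63 and 6.11 in the same order, and NPY to 0.41 with the pseudocount of 5. Without N4, PENK was 1.66, SCG2 5.53, and the count of the 5 genes 2. The 8 other pathway genes past 4-fold became 16 with no minimum level and 5 with the marker gate. Of the 4 genes most like PENK, SCG2 and SCG3, 0 were shared with a Spearman ranking. The marker gate, the fits without N4 and the rankings over other clusters were chosen after seeing the data. The causes were not tested. No paired analysis was possible because there is 1 group. NPY and NMB outside their few rich cells rest on single UMI, and small clusters bound any share only loosely.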

Other observations

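The peptide precursor genes NPPC and ADM were highest in placental cells. NPPC, the precursor of C-type natriuretic peptide, stood at 14444 and 6650 CPM in the binucleate trophoblast-like cluster 21 (7 and 4 cells), which held 64.7% of all NPPC UMI, and every cell of the cluster had it. ADM, the precursor of the vasodilator adrenomedullin, had 2469 and 540 CPM there and was captured in 7 of 7 and 3 of 4 cells. The placental hormone gene PRP1 had 16929 and 12636 CPM in the same cells. None of the 5 genes but SCG3, with 1 UMI, was captured in cluster 21.

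GAL, the galanin precursor, had 88.5 and 52.4 CPM in the mesenchyme-like cluster 14 (34 and 71 cells), which held 41.1% of its UMI, as well as 19 and 107 CPM in N0. SLC6A4, the serotonin transporter gene named beside PENK in N4, had 40.0 and 49.8 CPM in cluster 14 too, where TPH2 gave 0 and 1 UMI.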
